A study of Mus musculus with 8 samples.

Results

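Ccny, Birc6, Lonp2, Prr5l and Rmdn1 are 5 genes for which the probe sets of 1 expression array gave different answers about genotype. A probe set is a group of short oligonucleotides that reads 1 stretch of transcript sequence, often near a 3' end, so several probe sets of a gene can read different transcript forms. The genes were chosen by measured values of this series: each had 1 probe set that was lower in Crebbp+/- than in wild-type cells, while the brightest probe set of the same gene differed less or the other way. Genotype values of these genes are therefore given as a description, without a test. They are 5 of 18193 genes with at least 1 probe set annotated to a single symbol. The platform annotation gave these symbols, each as the only symbol of a probe set, to 26 of the 45037 probe sets of the series (controls not counted), and 22 of the 26 exceeded a filter set at the median of mean signals, 2.72 on the log2 scale.

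The samples were haematopoietic stem cells of mouse fetal liver, sorted for high c-Kit with Sca-1 and AA4.1 and without lineage markers, from Crebbp+/- and wild-type embryos on a C57BL/6 background. Crebbp+/- cells carry 1 mutant copy of Crebbp, which encodes the transcriptional coactivator and histone acetyltransferase CBP. Each genotype had 2 numbered samples of 15 combined embryos (14.5 days post coitum in the labels' description, 14 in their characteristics), and each sample had 2 arrays from 12 ng of amplified total RNA. The labels leave unsaid whether repeat arrays stem from different cells, and the 2 arrays of a sample were averaged, which gave n = 2 samples per genotype.

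The 5 genes belong to unrelated pathways. Ccny encodes cyclin Y, a membrane-anchored cyclin that activates the kinases CDK14 and CDK16 and acts in Wnt signalling. Birc6 encodes a very large inhibitor of apoptosis that attaches ubiquitin to caspases and to their activators. Lonp2 encodes the Lon protease of peroxisomes, which removes damaged or surplus matrix proteins. Prr5l encodes Protor-2, a protein that binds mTORC2, the growth-factor-responsive mTOR complex built around Rictor. Rmdn1 belongs to a family named for RMD-1 of Caenorhabditis elegans, a protein of chromosome segregation.

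Values are GCRMA signals on the log2 scale, and array medians over all probe sets lay between 2.65 and 2.70. Genes listed for the sorted cells were present: all 5 with a value (Kit, Cd93, Cd34, Mpo and Gata2) exceeded the filter. Ly6a, which encodes Sca-1, had no probe set with 1 symbol. The list does not tell stem cells from progenitors. Of the lists for other cells, 4 of 6 hepatocyte, 1 of 4 erythroid and 3 of 5 macrophage genes did. The hepatocyte median was 5.70 and 6.07 in Crebbp+/- samples 1 and 2, against 2.54 and 7.13 in wild-type samples 1 and 2. Sample numbers went with the difference between 5' and 3' controls. The Gapdh 5' control lay further below the 3' control in sample 2 of each genotype, by -0.89 and -1.88 in Crebbp+/- samples 1 and 2 and by -1.22 and -2.59 in wild-type samples 1 and 2. Within each number it lay less far below in Crebbp+/- than in wild type, as did the Actb control (-1.90 and -2.55 in Crebbp+/-, -2.13 and -3.19 in wild type), so these controls went with genotype too. RNA integrity and the amplification of RNA cannot be told apart in these controls. The part of these differences in the results below was not tested. In bulk RNA, fewer cells of a type and less RNA per cell cannot be told apart.

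Prr5l and Lonp2 have more than 1 annotated transcription start, and their start regions are shown because probe sets of such a gene can read transcripts with different beginnings. RefSeq (GRCm38.p6) listed 3 windows of 300 bases around starts of Prr5l and 2 of Lonp2. Prr5l start 1 is at chr2:101882978-101883277, start 2 at chr2:101838931-101839230 and start 3 at chr2:101797658-101797957, all on the minus strand. Lonp2 start 1 is at chr8:86623793-86624092 and start 2 at chr8:86651319-86651618, both on the plus strand. Capitals mark the GC box GGGCGG or its reverse complement CCGCCC.
Prr5l start 1: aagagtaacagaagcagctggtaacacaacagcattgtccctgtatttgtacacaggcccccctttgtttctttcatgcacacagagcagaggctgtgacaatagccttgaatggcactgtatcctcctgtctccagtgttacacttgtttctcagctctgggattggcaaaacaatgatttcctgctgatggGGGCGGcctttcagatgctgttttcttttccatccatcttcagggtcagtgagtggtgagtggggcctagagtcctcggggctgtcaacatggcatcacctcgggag
Prr5l start 2: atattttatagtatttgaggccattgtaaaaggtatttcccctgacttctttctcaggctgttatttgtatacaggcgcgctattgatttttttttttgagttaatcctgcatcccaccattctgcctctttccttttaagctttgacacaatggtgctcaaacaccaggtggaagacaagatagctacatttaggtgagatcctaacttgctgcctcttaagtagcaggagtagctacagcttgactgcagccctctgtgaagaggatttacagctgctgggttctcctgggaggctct
Prr5l start 3: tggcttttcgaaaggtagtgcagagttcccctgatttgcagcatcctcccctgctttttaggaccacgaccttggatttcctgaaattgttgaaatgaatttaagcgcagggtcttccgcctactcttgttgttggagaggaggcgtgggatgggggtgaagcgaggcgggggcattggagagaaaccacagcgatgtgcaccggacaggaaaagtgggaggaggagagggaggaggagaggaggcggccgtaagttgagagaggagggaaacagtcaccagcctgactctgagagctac
Lonp2 start 1: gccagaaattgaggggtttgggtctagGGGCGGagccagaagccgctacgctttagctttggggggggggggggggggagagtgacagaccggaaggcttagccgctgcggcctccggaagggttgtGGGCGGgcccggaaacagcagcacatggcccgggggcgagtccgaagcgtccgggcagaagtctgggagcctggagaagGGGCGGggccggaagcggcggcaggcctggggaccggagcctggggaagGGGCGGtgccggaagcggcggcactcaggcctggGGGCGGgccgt
Lonp2 start 2: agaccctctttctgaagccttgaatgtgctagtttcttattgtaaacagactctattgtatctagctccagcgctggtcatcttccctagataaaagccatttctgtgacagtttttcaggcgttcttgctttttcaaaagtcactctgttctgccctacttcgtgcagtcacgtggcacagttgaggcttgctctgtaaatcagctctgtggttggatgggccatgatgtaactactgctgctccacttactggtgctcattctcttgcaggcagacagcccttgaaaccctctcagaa

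The windows of a gene differed in base composition. Lonp2 start 1 was 72% G or C with 25 CpG dinucleotides and 5 GC boxes, whereas Lonp2 start 2 was 46.3% G or C with 4 CpG and no GC box. Prr5l start 3 held 11 CpG, against 3 at start 1 and 2 at start 2, and only start 1 of that gene held a GC box (1 match). Among all 32851 windows of this length, 35.7% held a GC box on either strand. The CRE core TGACG, or CGTCA on the other strand, the letters of CREB sites, was in 20.8% of all windows and in none of these 5. CCAAT or ATTGG was in 37.4% of all windows and matched once each at Prr5l starts 1 and 3. Matches of the 3 motifs are descriptions of letters, and which start a probe set reads is not given in the sources used here.

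Ccny had the most probe sets, 7, all above the filter, and they split by genotype. Its lowest probe set, 1432352_at (no design accession listed), had signals of 5.21 and 5.14 on the arrays of Crebbp+/- sample 1 and 5.71 and 5.30 on those of sample 2, against 5.78 and 8.02 in wild-type sample 1 and 7.17 and 7.43 in wild-type sample 2. All 4 Crebbp+/- arrays lay below all 4 wild-type arrays, but array 1 of wild-type sample 1 exceeded the highest Crebbp+/- array by a small margin. The genotype difference (Crebbp+/- minus wild type) was -1.76 with a standard error of 0.31. This standard error, like those below, comes from the means of the 2 samples of each genotype. Disagreement between repeat arrays enters it only through those means.

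The brightest Ccny probe set, 1428413_at, designed on the mRNA sequence AK017493, ran the other way. It gave 11.02, 11.00, 10.76 and 10.80 on the Crebbp+/- arrays, against 10.61, 10.63, 10.35 and 10.37 on the wild-type arrays. Here every Crebbp+/- array lay above every wild-type array, and the difference was 0.41 (SE 0.18). The other 3 mRNA-designed probe sets of Ccny were also higher in Crebbp+/-, with differences of 0.65 (1428414_at, AK017493), 0.37 (1428971_at, AK014507) and 1.07 (1452984_at, AK014507), and their arrays overlapped between genotypes. The EST-designed 1441283_at (BG069528) differed by -0.71 with overlapping arrays, and 1454201_a_at lay close to the filter at 2.77 with a difference of -0.04. ESTs are short single-pass reads of cDNA clones, unlike full-length mRNA records.

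Birc6 had 6 probe sets, of which 5 exceeded the filter. Its lowest, 1437789_at, designed on the EST BB527646, gave 7.27 and 8.06 in Crebbp+/- sample 1 and 8.10 and 6.91 in sample 2, against 8.70 and 9.21 in wild-type sample 1 and 8.77 and 9.10 in sample 2. The genotypes did not overlap, and the difference was -1.36 (SE 0.22). The brightest, 1419562_at, designed on the RefSeq transcript NM_007566, gave 11.02, 11.09, 11.51 and 11.58 on the Crebbp+/- arrays, against 10.93, 11.33, 11.83 and 11.61 on the wild-type arrays. These overlapped throughout, with a difference of -0.12 (SE 0.28).

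The second RefSeq-designed probe set of Birc6, 1419563_at, shared that accession and that size of difference (-0.12, SE 0.27) at a much lower signal of 5.34. The EST-designed 1442959_at (BM228823) differed by -0.73 and 1442495_at (BG071331) by 0.16, both with overlapping arrays. Probe set 1427488_a_at (BC026990) averaged 2.50, below the filter, and was not tested.

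Lonp2 had 4 probe sets, of which 3 exceeded the filter. The lowest, 1442258_at, designed on the EST AV229709, gave 3.69 and 3.40 in Crebbp+/- sample 1 and 3.48 and 2.83 in sample 2, against 5.23 and 5.95 in wild-type sample 1 and 5.50 and 5.28 in sample 2. Every Crebbp+/- array lay below every wild-type array. The genotype difference of -2.14 (SE 0.28) was the most negative of the 22 probe sets. The brightest, 1460178_at, designed on NM_025827, gave 6.63, 6.65, 7.00 and 6.75 on the Crebbp+/- arrays, against 6.83, 6.69, 7.32 and 7.02 on the wild-type arrays.

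Those signals overlapped between genotypes, with a difference of -0.20 (SE 0.30). The EST-designed 1436655_at (BE986653) averaged 2.76, next to the filter, and 1459784_x_at (BB521298) averaged 2.26, below it. Lonp2 1442258_at and 1460178_at were thus the only probe sets of the gene with a mean signal clear of the filter. At 1442258_at, though, the Crebbp+/- mean was 3.35, and array 2 of Crebbp+/- sample 2 lay near the filter at 2.83.

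Prr5l had 3 probe sets, and the genotype differences of its lowest and brightest lay further apart than in the other 4 genes. The lowest, 1452834_at (no design accession listed), gave 2.53 and 2.89 in Crebbp+/- sample 1 and 2.89 and 2.73 in sample 2, against 2.95 and 5.33 in wild-type sample 1 and 4.11 and 3.68 in sample 2. The Crebbp+/- signals sat at the filter, so the size of the difference, -1.26 (SE 0.21), is uncertain. Array 1 of wild-type sample 1 was barely above the Crebbp+/- arrays, while its repeat array was the highest of all 8.

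The brightest Prr5l probe set, 1429909_at, designed on AK014682, gave 6.61 and 5.93 in Crebbp+/- sample 1 and 7.13 and 6.75 in sample 2, against 6.01 and 5.28 in wild-type sample 1 and 4.24 and 6.53 in sample 2. The genotypes overlapped, with a difference of 1.09 (SE 0.36). The EST-designed 1447914_x_at (AV249015) gave 4.55, 4.44, 5.13 and 5.24 in Crebbp+/-, against 4.34, 4.21, 2.71 and 5.60 in wild type, a difference of 0.63. On array 1 of wild-type sample 2 both of these probe sets had their lowest signal of the 8 arrays.

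Rmdn1 had 6 probe sets, of which 4 exceeded the filter. The lowest, 1438034_at, designed on the EST BB115225, gave 2.81 and 2.23 in Crebbp+/- sample 1 and 2.79 and 2.32 in sample 2, against 3.34 and 3.71 in wild-type sample 1 and 3.69 and 3.85 in sample 2. The genotypes did not overlap, but the Crebbp+/- mean of 2.54 lay below the filter, so the size of the difference, -1.11 (SE 0.20), is uncertain. The brightest, 1418658_at, designed on BC025158, gave 4.51, 5.01, 5.58 and 5.43 on the Crebbp+/- arrays, against 4.96, 4.79, 6.20 and 5.47 on the wild-type arrays.

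That probe set followed the sample number more than the genotype, with a genotype difference of -0.22 (SE 0.47). Probe sets 1457999_at (AI449062) and 1457017_at (no accession listed) differed by 0.45 and 0.13. The remaining 1460155_at (AV252141) and 1452300_at (BI102531) averaged 2.54 and 2.51, below the filter.

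**Figure D1:**
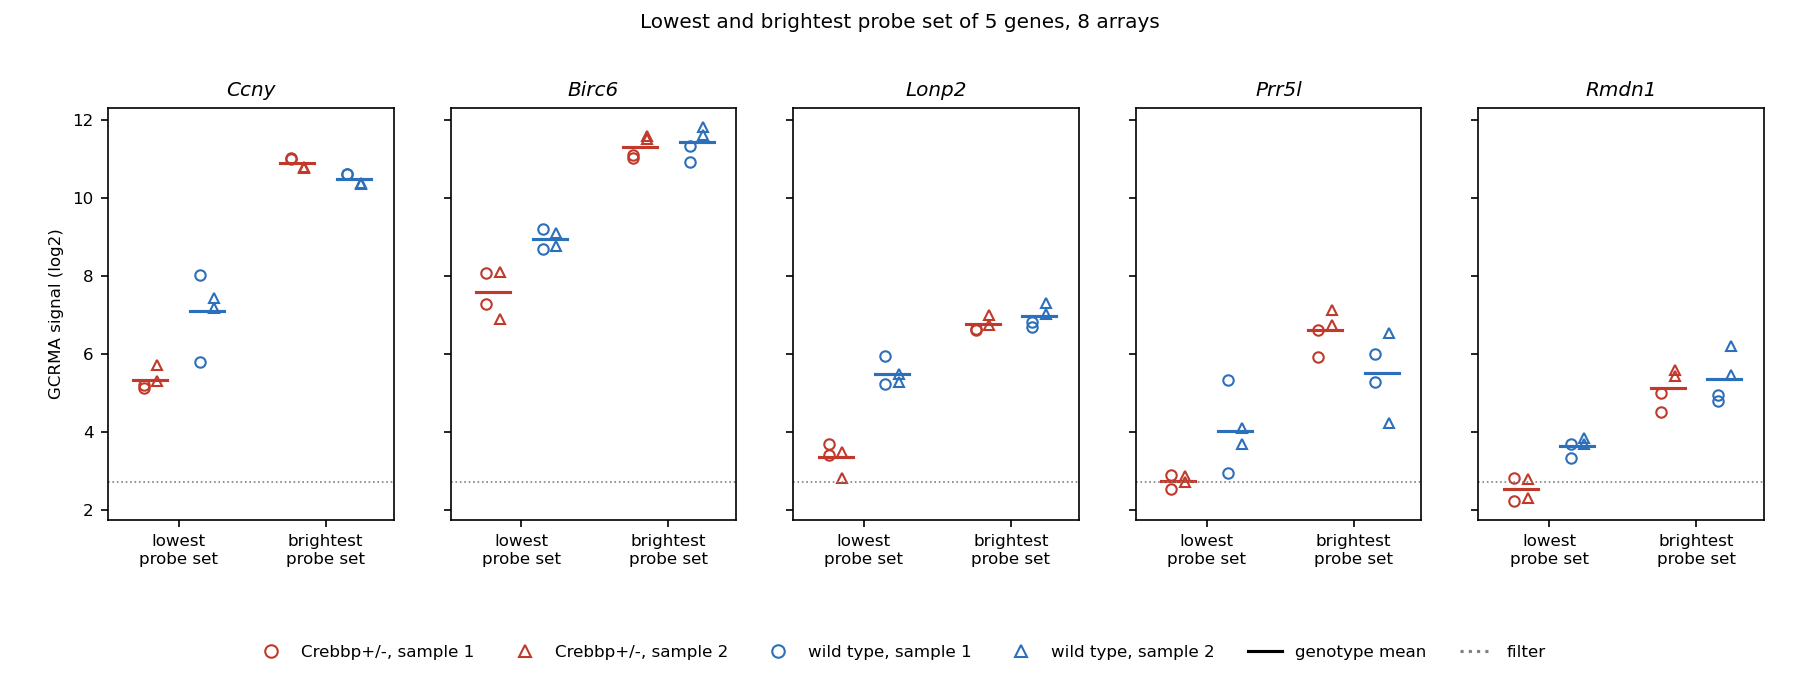
GCRMA log2 signal (vertical axis) of the lowest and the brightest probe set of each gene, with Crebbp+/- arrays in red left of wild-type arrays in blue, circles for sample 1, triangles for sample 2, bars for genotype means and a dotted line at the filter of 2.72. All 5 lowest probe sets have every Crebbp+/- array below every wild-type array, while among the brightest only Ccny separates, with Crebbp+/- above.

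Across the 22 probe sets above the filter, 12 had a negative and 10 a positive genotype difference. All 4 Crebbp+/- arrays lay below all 4 wild-type arrays for 5 of the 22, which are the 5 lowest probe sets that the choice of genes fixed, and for 842 of the 22518 probe sets tested (3.74%). They lay above for 1 of the 22, the brightest probe set of Ccny, and for 3.24% of those tested. With limma, 0 of 22518 probe sets (0%) passed an adjusted p of 0.05 between genotypes, the lowest adjusted p being 0.991, while 1089 had an unadjusted p under 0.05. None of the 22 passed.

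**Figure D2:**
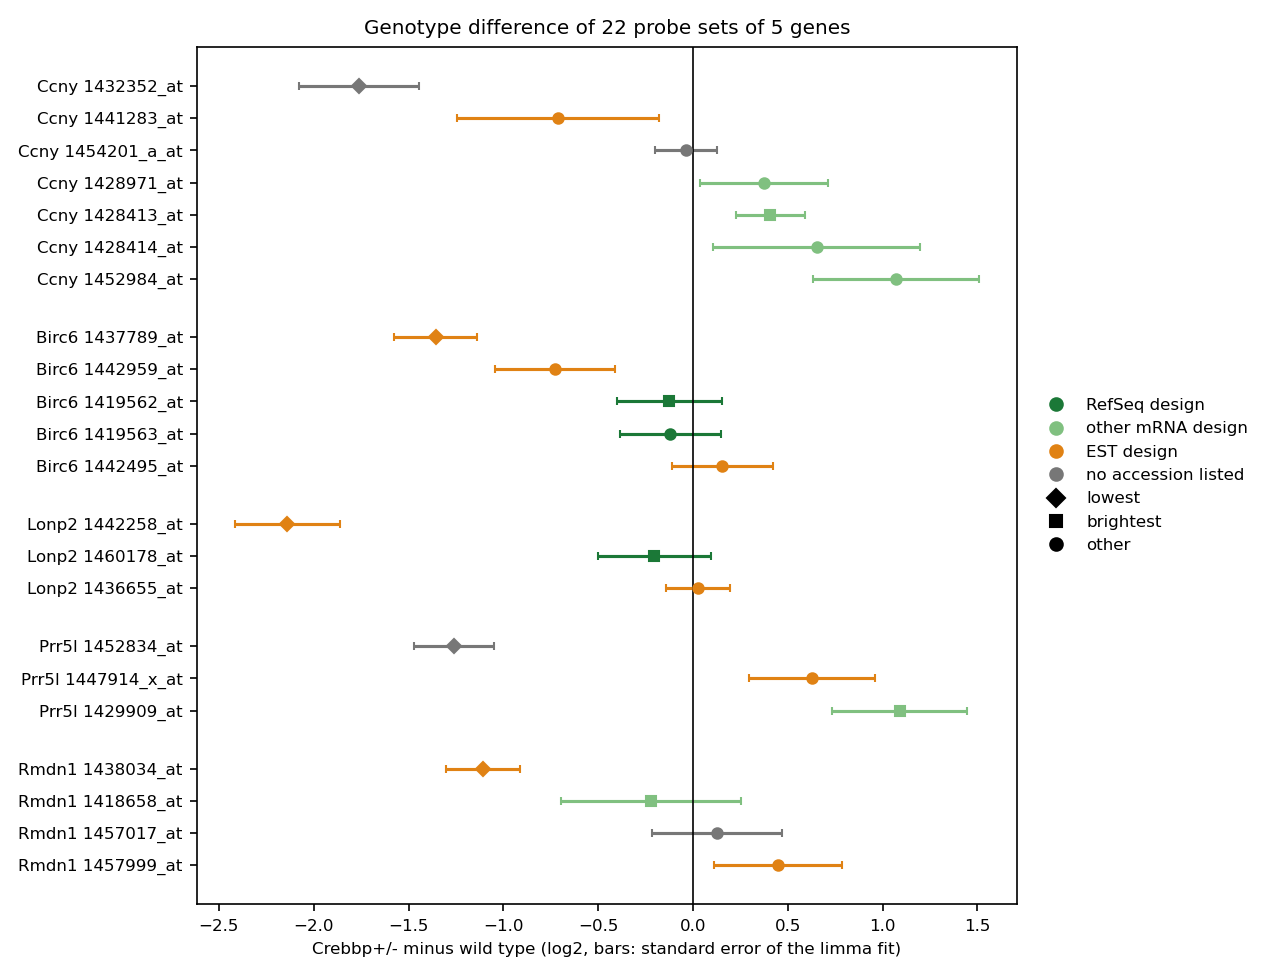
Genotype difference (Crebbp+/- minus wild type, log2, horizontal axis) of the 22 probe sets above the filter, grouped by gene, with bars for the standard error of the limma fit (n = 2 samples per genotype), colours for the type of design sequence, diamonds for the lowest and squares for the brightest probe set. The lowest probe sets lie between -2.14 and -1.11, and their design sequences are ESTs or not listed, while the brightest lie between -0.22 and 1.09 and are all designed on RefSeq or other mRNA records.

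The type of sequence behind each probe set, which played no part in the choice of genes, differed between the lowest and the brightest ones. Of the 5 lowest probe sets 3 were designed on ESTs and 2 had no accession listed, whereas of the 5 brightest 2 were designed on RefSeq transcripts and 3 on other mRNA records. Among all 19054 tested probe sets with 1 symbol, 50.6% were designed on ESTs, 16.3% on RefSeq transcripts and 23.6% on other mRNA records, and 8.66% had none listed. Among the 2926 genes whose lowest probe set was not their brightest, the brightest was EST-designed in 55.2% and the lowest in 62.5%. The 3 of 5 lowest ones on ESTs are close to the latter share. Over the 22 tested probe sets of the 5 genes, differences were negative for 5 of 9 EST-designed and 3 of 3 RefSeq-designed ones. They were negative for 1 of 6 on other mRNA records and 3 of 4 with none listed. Among all tested probe sets with 1 symbol, the negative shares of these classes, in the same order, were 44.4%, 42.8%, 40.1% and 47.9%. The negative ones include the 5 lowest probe sets, which the choice of genes fixed. The 3 RefSeq-designed ones lay between -0.20 and -0.12, each smaller in size than its standard error. These counts therefore show no pattern by class.

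Over the whole table, EST-designed probe sets had 161 differences of -1 or below and 106 of 1 or above, against 15 and 31 for RefSeq-designed ones. As shares, a difference of -1 or below was found for 1.67% of EST-designed probe sets, 0.483% of RefSeq-designed ones, 0.668% of those on other mRNA records and 1.09% of those with none listed. A difference of 1 or above was found for 1.10%, 0.999%, 1.00% and 0.606% of the same classes. In 1787 genes with both kinds, the mean of EST-designed probe sets lay below that of RefSeq- or mRNA-designed ones in 1136 (63.6%), with a median of -0.11. The same comparison between sample numbers 2 and 1 gave 42.9% and a median of 0.10. These are counts over probe sets that share 4 samples, with no test, and median signals also differed, at 6.60 for EST-designed and 7.45 for RefSeq-designed probe sets.

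For each gene the gap was defined as the genotype difference of its lowest probe set minus that of its brightest. It was -2.35 for Prr5l, -2.17 for Ccny, -1.94 for Lonp2, -1.23 for Birc6 and -0.89 for Rmdn1, with SDs between samples of the same genotype of 0.29, 0.43, 0.44, 0.44 and 0.51 (pooled over both genotypes, n = 2 each). Within the samples numbered 1 and 2 the gap was -2.06 and -2.65 for Prr5l, -2.12 and -2.22 for Ccny and -1.93 and -1.95 for Lonp2. For Birc6 it was -1.21 and -1.25 and for Rmdn1 -0.89 and -0.88. The gap was thus negative in both numbers for all 5 genes. The choice of genes used these same samples, so that sign is no separate support. Leaving out wild-type sample 1 moved the gap of Rmdn1 to -0.53.

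Set against all 4927 genes with at least 2 tested probe sets, the gaps of Prr5l, Ccny and Lonp2 ranked 3, 4 and 9 by size, and those of Birc6 and Rmdn1 ranked 101 and 343. These ranks are approximate, since Crebbp+/- signals of Prr5l 1452834_at and Rmdn1 1438034_at were at or below the filter, and with signals floored at the filter the gap of Rmdn1 was -0.66. The median gap was -0.08, and 343 genes (6.96%) had a gap at least as large as that of Rmdn1. The mirror image, a highest probe set above the brightest by as much, was found for 2.98% of genes. In the 343 genes the lowest probe set was EST-designed in 76.4% and the brightest in 57.4%. Genes with more probe sets have more chances of a large gap, and no test was made because the 5 genes were chosen for it.

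The same measure was taken on differences that the choice did not use. Between sample numbers 2 and 1, 14.7% of genes had a gap as large as that of Rmdn1, and between array 2 and array 1 of the same samples 1.58% had. For the probe sets of the 5 genes, the lowest minus the brightest differed between sample numbers by 0.61 for Ccny, -0.63 for Birc6, -0.62 for Lonp2, -0.28 for Prr5l and -0.71 for Rmdn1. Between repeat arrays it differed by 0.49, 0.03, 0.06, 0.41 and 0.01. The 5 genes were chosen for their gap by genotype, so its size relative to these values is no evidence about them.

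**Figure D3:**
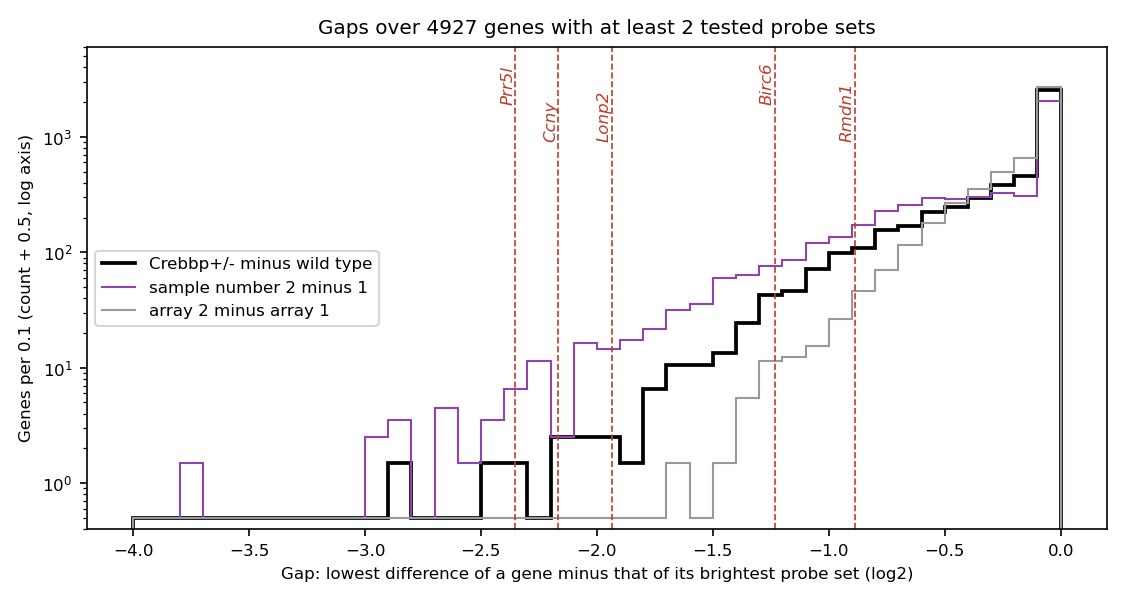
Number of genes (vertical axis, log scale, 0.5 added to each count) by gap (horizontal axis, log2, in steps of 0.1) over 4927 genes, for Crebbp+/- minus wild type in black, sample number 2 minus 1 in purple and array 2 minus array 1 in grey, with dashed lines at the genotype gaps of the 5 genes. Beyond a gap of -0.9 the sample number curve lies mostly above the genotype curve, with 14.7% against 6.96% of genes at or beyond the line of Rmdn1.

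Repeat arrays of the same sample disagreed more at 3 of the 5 lowest probe sets than at most probe sets of like signal. The SD between repeat arrays, pooled over the 4 samples, was 0.81 for Ccny 1432352_at, 0.55 for Birc6 1437789_at and 0.87 for Prr5l 1452834_at. It exceeded that of 97.3%, 99.0% and 95.4% of tested probe sets within 0.5 log2 units of the same mean signal. For Lonp2 1442258_at it was 0.36 and for Rmdn1 1438034_at 0.30, above 44.0% and 45.4% of such probe sets. The brightest Ccny probe set had an SD of 0.017, below nearly all of its like, whereas the brightest of Prr5l had 0.89, above 98.5%. Leaving out array 2 of wild-type sample 1 changed the gaps of Ccny and Prr5l to -1.61 and -1.57, and leaving out array 1 of that sample changed them to -2.73 and -3.13. At Ccny 1432352_at, Birc6 1437789_at and Prr5l 1452834_at the standard errors of the genotype difference (0.31, 0.22 and 0.21) were smaller than the SDs between repeat arrays. Those standard errors may therefore understate the uncertainty.

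The 2 numbered samples offered a comparison that the choice of genes did not use. The titles give both genotypes a sample 1 and a sample 2, without saying what the number marks, and limma was fitted with terms for genotype and number. Of the 22 probe sets 3 (13.6%) passed an adjusted p of 0.05 for sample 2 minus sample 1, beside 2209 of 22518 tested (9.81%), a share of members close to the background. Ccny 1428414_at differed by -1.09 (SE 0.16, limma adjusted p = 0.020), Ccny 1428971_at by -0.61 (SE 0.13, adjusted p = 0.040) and Birc6 1419562_at, its brightest, by 0.54 (SE 0.088, adjusted p = 0.023).

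None of the 5 lowest probe sets passed this test, with differences between -0.30 and 0.37 and adjusted p values from 0.38 to 0.87. Within Ccny, sample 2 was lower than sample 1 in both genotypes at all 4 mRNA-designed probe sets and at the EST-designed 1441283_at, and higher in both at the lowest one, 1432352_at. Within Birc6 the brightest was higher in sample 2 in both genotypes, by 0.49 in Crebbp+/- and 0.59 in wild type. The difference between 5' and 3' controls moved with the same numbers. So did the median of the 5 listed macrophage markers. It was 2.77 and 3.96 in Crebbp+/- samples 1 and 2 and 2.59 and 3.53 in wild-type samples 1 and 2. These medians are the values of C1qb alone. Cd68 did not rise in wild type (6.01 and 5.87 in samples 1 and 2), and C1qa lay below the filter with a mean of 2.23. Csf1r, the macrophage growth factor receptor, had 9.31 and 10.90 in Crebbp+/- and 9.81 and 10.76 in wild type. The part of either in these calls was not tested. Calls of this fit depended on its settings: 0 probe sets passed without the term for genotype, without the filter, without the intensity trend, without array 2 of wild-type sample 1 or without array 1 of wild-type sample 2. None of the 3 calls remained without array 2 of wild-type sample 2 either. Ccny 1428971_at also missed the threshold with quantile normalization (adjusted p = 0.051) and without either array of Crebbp+/- sample 2 (0.059 and 0.075), array 1 of Crebbp+/- sample 1 (0.062) or array 1 of wild-type sample 1 (0.070). Birc6 1419562_at also missed it without array 2 of Crebbp+/- sample 2 (0.053). The p values rest on how far the number difference varied between the 2 genotypes, with 1 residual degree of freedom and variances shared across probe sets. With 1 sample per genotype and number, they do not measure the spread among preparations of the same kind.

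**Figure D4:**
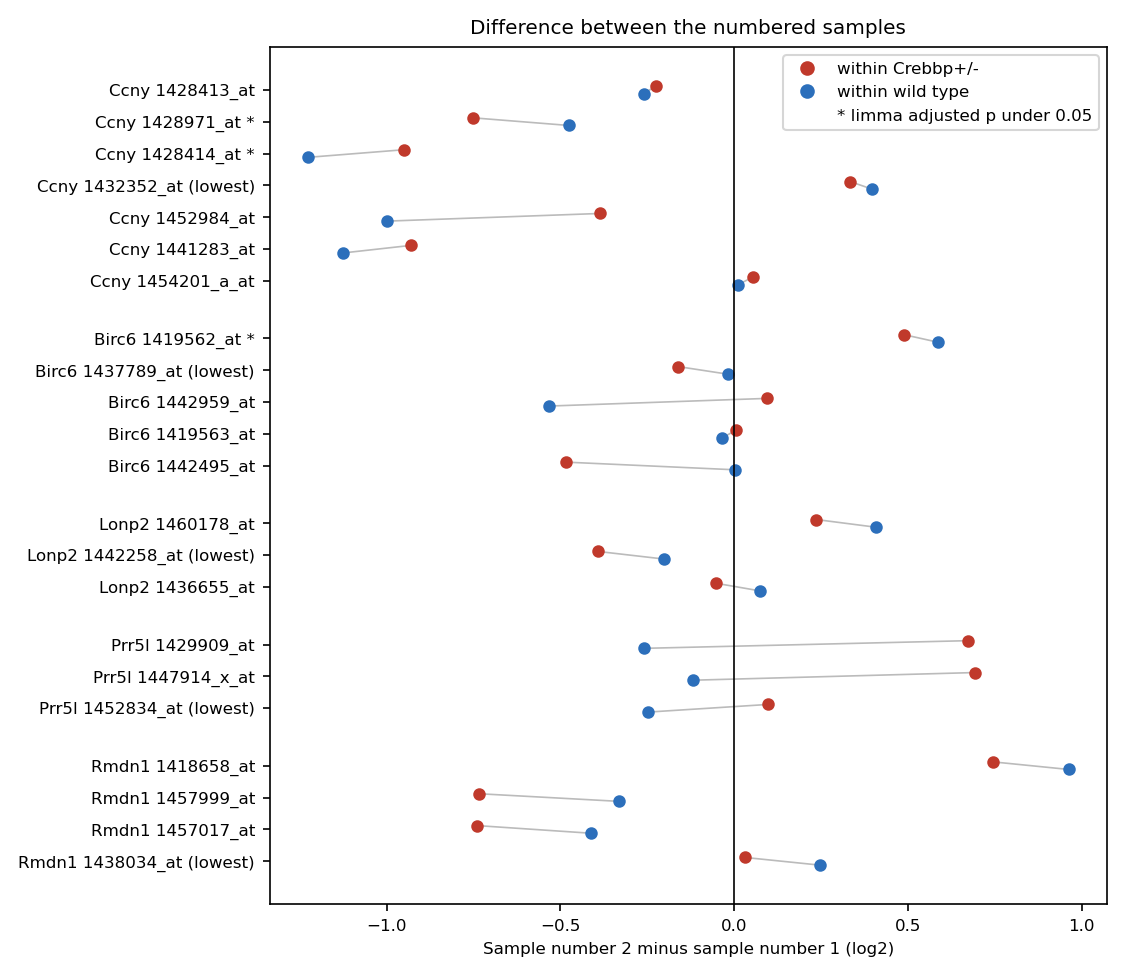
Difference between sample number 2 and sample number 1 (log2, horizontal axis) for the 22 probe sets above the filter, in Crebbp+/- (red, upper point) and wild type (blue, lower point), with probe sets of each gene from brightest to dimmest and an asterisk for a limma adjusted p under 0.05. Of the 22, 15 have the same sign in both genotypes, and the 3 with an asterisk are 2 probe sets of Ccny and the brightest of Birc6.

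The profile of each lowest probe set over the 8 arrays was closer to probe sets of other genes than to the brightest of its own gene. Likeness was the root mean square difference of centred log2 signals. The genotype difference that chose the lowest probe sets is part of it, so this order was largely set by the choice of genes. The order is given as a description only. For Ccny the closest were Nav2 (1444706_at, 0.34), Prr5l (its own lowest probe set, 1452834_at, 0.41) and Klf9 (1456341_a_at, 0.41), against 1.26 for the brightest probe set of Ccny, than which 14802 probe sets were closer. For Birc6 they were Meg3, an imprinted noncoding RNA (1452183_a_at, 0.17), Meis1, a Hox cofactor (1443260_at, 0.23), and Dtl, a substrate receptor of a ubiquitin ligase (1453753_at, 0.23), against 0.79 for its own brightest.

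For Lonp2 the closest were Tpp2, a peptidase of the cytosol (1430576_at, 0.41), Phxr4 (1422272_at, 0.42) and Tspan8, a tetraspanin (1424649_a_at, 0.44), against 1.05 for its own brightest. For Prr5l they were Yipf1 (1442647_at, 0.32), Tasor2 (1442513_at, 0.35) and Api5 (1443112_at, 0.36), against 1.60. For Rmdn1 they were Cep44, a centrosomal protein (1440773_at, 0.19), Sltm (1443426_at, 0.19) and Neurl3 (1444003_at, 0.22), against 0.69. Of these 15 probe sets 7 were EST-designed, 5 had no accession listed, 2 were designed on other mRNA records and 1 on another kind of record, while none was designed on a RefSeq transcript. Beside the shares of these classes over all tested probe sets given above, the 7 EST-designed ones are close to the background share of 50.6%.

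At their brightest probe sets, partners of the 5 proteins had genotype differences between -0.56 (Cdk18, a kinase related to CDK16) and 0.41 (Ccnyl1, a cyclin close to cyclin Y), the extremes being named after their values were seen. Of the 37 tested, 0 passed the limma test and 0 had an unadjusted p under 0.05, beside 0 and 1089 of all 22518 probe sets. A 1 log2 shift was recovered in 0% of simulated cases, so differences of the sizes seen here were not detectable. Over all 10600 genes the median difference was 0.04, with 6028 positive and 4572 negative. Of 6 cyclin Y partners 4 had a positive and 2 a negative difference, with a median of 0.06. Cdk16, a kinase that cyclin Y activates, differed by 0.05 (SE 0.155) and Lrp6, the Wnt co-receptor that cyclin Y with CDK14 helps to phosphorylate, by 0.06 (SE 0.19). Of 9 genes for inhibitors of apoptosis, their antagonists and targets 5 were positive and 4 negative (median 0.10), with Birc5, the mitotic inhibitor of apoptosis survivin, at 0.12 (SE 0.20) and Htra2, a mitochondrial protease that antagonises them, at -0.23 (SE 0.17).

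Of 12 genes for peroxisomal matrix proteins and their import 4 were positive and 8 negative (median -0.04). Catalase, Cat, differed by -0.20 (SE 0.31) and Scp2, a sterol carrier, by -0.08 (SE 0.19). Of 9 genes for mTORC2 and its substrates 4 were positive and 5 negative, with a median of -0.0024. The kinases Akt1 and Sgk1, both phosphorylated by mTORC2, differed by 0.26 (SE 0.21) and -0.26 (SE 0.18). In the family of Rmdn1, Rmdn3, a protein of contacts between endoplasmic reticulum and mitochondria, differed by -0.06 (SE 0.12), and Rmdn2 lay below the filter.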

How the data were processed

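The deposited table holds 1 log2 signal per probe set and array. GCRMA made these values, per the submitters' processing notes, with no version named, and scanner files were not analysed here. The number of samples, 2 per genotype, limits the precision of the genotype differences. Gene symbols and design accessions came from the platform annotation. Probe sets with several symbols named no gene. Of 34945 probe sets with 1 symbol, 34741 matched the GRCm38.p6 RefSeq gene table by gene identifier, with no symbol changed. Design accessions were classed by prefix as RefSeq, EST, other mRNA or other.

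The 2 arrays of each sample were averaged. Probe sets with a mean above the median of 2.72 (22518) entered a limma fit (version 3.58.1, R 4.3.3) with an intensity trend, with p-values adjusted over all of them by the Benjamini-Hochberg method. The genotype fit had 2 residual degrees of freedom and the sample number fit 1. For 1 probe set, 2 samples a side allow an exact permutation p of 0.33 at the lowest (two-sided), and no such test was used. The labels do not say whether samples came from separate litters. The genes, lists and tests were chosen with earlier results of these data known. Named were all probe sets of the 5 genes, the 3 probe sets closest to each lowest one, the 3 largest gaps, and the 2 brightest genes of each partner list.

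Both fits were tested on 20 simulated tables of 22518 probe sets, 200 of them shifted. For shifts of 1, 2 and 3 log2 units the genotype fit recovered 0%, 1.42% and 65.9% on average, and the sample number fit 27.4%, 93.1% and 99.5%. Of all calls of the sample number fit, 18%, 11.8% and 7.61% were false at these shifts, above the intended 5%. Deviations of samples with the same number correlated at 0.55 over probe sets. With 2 pairs this does not establish that numbers pair the samples.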

Additional observations from a re-analysis of the deposited data

Results flagged for a closer look

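In 5 of 52 sets of 4 arrays (26 probe sets, 2 genotypes), 1 array stood apart from the other 3 by Dixon's criterion at the 95% level. With 4 independent values chance alone does so in about 1 in 20. Here each set holds repeat arrays of 2 samples, and all probe sets share the same arrays, so that rate is only a rough guide. All 5 lay near the background signal. Rmdn1 1452300_at was 3.08 on array 2 of Crebbp+/- sample 1, against 2.34 to 2.38 on the other Crebbp+/- arrays, and 2.83 on array 2 of wild-type sample 1, against 2.36 to 2.38 on the other wild-type arrays. Rmdn1 1460155_at was 2.74 on array 2 of wild-type sample 1, against 2.50 to 2.52. Lonp2 1459784_x_at was 2.50 on array 2 of wild-type sample 2, against 2.20 to 2.23, and Lonp2 1436655_at was 2.84 on the same array, against 2.70 to 2.72. None is a lowest or brightest probe set of its gene.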

How the results depend on the processing

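Between genotypes 0 probe sets passed under every alternative setting except with the 8 arrays as independent samples, where 1 passed, which belonged to none of the 5 genes. A fit with a replicate block (the sample number) also gave 0. For sample number 2 minus 1, 0 passed without the term for genotype, 0 without the filter, 0 without the intensity trend and 3646 over the brightest 25% of probe sets, while quantile normalization and a floor stayed within 1.5 times the count reported. Leaving out each array (added after seeing the data) gave 0 to 2425. Leaving out a whole sample leaves this fit no residual degrees of freedom, so it was not run. All 5 gaps stayed negative under every alternative that gave a value, but the choice of genes used the same samples. With each sample or array left out they ranged from -2.73 to -1.61 for Ccny, -1.56 to -0.91 for Birc6, -2.25 to -1.62 for Lonp2, -3.13 to -1.57 for Prr5l and -1.25 to -0.53 for Rmdn1. The gap of Prr5l was -2.06 within samples numbered 1 and -2.65 within those numbered 2. Genes with a gap as large as that of Rmdn1 numbered 57 over the brightest 25%. Apart from these, no alternative moved a gap by more than its SD between samples. Where a count or value moved, the cause was not tested. The 57 genes were counted among fewer probe sets. Signals near the filter limit the size of differences at Prr5l 1452834_at and Rmdn1 1438034_at. At Lonp2 1442258_at, array 2 of Crebbp+/- sample 2 (2.83) also lay near the filter.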

Other observations

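The largest gap between genotypes was that of Tmtc3, an endoplasmic reticulum protein of O-mannosylation, whose lowest probe set (1457294_at) differed by -1.97 and its brightest (1436826_at) by 0.90, a gap of -2.88. Pibf1, a centrosomal protein, followed with -1.17 at 1430698_a_at and 1.24 at 1431618_a_at, a gap of -2.41, and Prr5l came next. Both probe sets of Tmtc3 were EST-designed and both of Pibf1 were designed on mRNA records.

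Of the partner genes, 21 had at least 2 tested probe sets, and 4 of these (19%) had a lowest probe set below the brightest by as much as in Rmdn1, against 6.96% of all 4927 genes. This tally was made after the values were seen and carries no test. Genes with more probe sets have more chances of such a gap, and the shares were not matched for their number. Tested probe sets numbered 6 for Xiap, 5 for Uba6, 4 for Rictor and 2 for Cdk17. The 4 were Cdk17, a kinase related to CDK16 (brightest 0.14, lowest -1.10), Rictor, the core subunit of mTORC2 (0.0073 and -0.98), Uba6, the enzyme that charges BIRC6 with ubiquitin (0.23 and -0.76), and Xiap, an inhibitor of apoptosis (0.36 and -0.62), each value being a genotype difference on the log2 scale. In the opposite direction 1 of the 21 (4.76%), Cdk14, had a highest probe set above its brightest by as much (0.83 and -0.08), against 2.98% of all genes. The other 16 met neither bound.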
